A study of Mus musculus with 9 samples.

Results

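Integrins are cell surface receptors that hold cells to the extracellular matrix, each made of an alpha and a beta chain. In blood vessels they tie endothelial cells to laminins, collagens and fibronectin, and their short inner tails connect the matrix to the actin cytoskeleton through talin and kindlin. Integrins also meet the angiopoietin system: the angiopoietin receptor Tek (Tie2) can associate with the fibronectin receptor, and Angpt2 can act through integrins as well as through Tek. Described here are 8 integrin subunit genes of endothelium, chosen by gene symbol: the alpha subunits Itga1, Itga3, Itga5, Itga6 and Itgav and the beta subunits Itgb1, Itgb3 and Itgb5. All 8 were among the 9277 genes measured.

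RNA was sequenced from mouse lung endothelial cells. The tested libraries came from Tie1-CR mice (n = 5), in which the orphan receptor Tie1 resists proteolytic cleavage, and were set against libraries of Tie1-WT mice (n = 4). The names of all 9 libraries carry PBS, which both genotypes therefore share. The labels state no age, sex or strain, nor how the allele was made, how the cells were isolated or whether each library came from its own mouse. Libraries were numbered with Tie1-WT before Tie1-CR, so the order of handling and the genotype cannot be told apart. The p-values therefore measure the spread between these libraries, which may in part be technical.

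Each library held 38208696 to 54408116 counted reads. Values are in CPM, the reads of a gene scaled to the same library total, which are not corrected for gene length. Of the endothelial markers, 11 of 11 were measured, with summed levels of 20288 to 20947 CPM in Tie1-CR libraries and 18444 to 20308 CPM in Tie1-WT libraries. Pecam1, the endothelial adhesion molecule, measured 2713 ± 56.9 CPM in Tie1-CR and 2592 ± 217 CPM in Tie1-WT (SD, n = 5 and 4), in accordance with the labelled cell type. Of the 11, 9 had a log2 difference, Tie1-CR minus Tie1-WT, above 0, as did 41.5% of all genes, and the median was 0.07. At a limma adjusted p below 0.05 stood 1 of the 11, or 9.09%, beside 4.05% of all genes. That marker, Erg, a transcription factor of endothelium, had the lowest difference of the list. It fell to 37.5 ± 1.77 CPM in Tie1-CR, against 50.3 ± 3.61 CPM in Tie1-WT, with no overlap (limma adjusted p = 0.00516). In bulk libraries, fewer cells of a type and less RNA per cell cannot be told apart.

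No integrin member differed between the genotypes past the threshold. Of the 8 members, 0 were higher and 0 lower in Tie1-CR (limma, Benjamini-Hochberg adjusted p below 0.05 over all 9277 genes), and 0 had an unadjusted p below 0.05. Over all genes, 4.05% were called (1.28% higher and 2.77% lower in Tie1-CR) and 22.3% had an unadjusted p below 0.05. The libraries of the 2 genotypes overlapped for all 8 members, where 10.5% of all genes had no overlap. The median log2 difference of the members, Tie1-CR minus Tie1-WT, was 0.07, and that of all genes was -0.03. All 8 differences lay above 0, between 0.01 for Itgav and 0.09 for Itga6, as did 41.5% of all genes, but that of Itgb1 became -0.01 with quantile normalization. The limma adjusted p of the members ran from 0.417 for Itga5 to 0.960 for Itgav, and over the alternative fits, libraries left out included, from 0.184 to 1.00.

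Itgb1 encodes the beta chain that most endothelial alpha chains pair with. It lies on chromosome 8 from 128685654 to 128733200 in GRCm38, like all positions given here. It measured 914, 918, 967, 986 and 972 CPM in Tie1-CR libraries, against 970, 862, 925 and 971 CPM in Tie1-WT libraries. The means were 951 ± 33.1 CPM in Tie1-CR and 932 ± 51.6 CPM in Tie1-WT (SD, n = 5 and 4). The lowest library was Tie1-WT replicate 2, and the rest of both genotypes shared the same range. The log2 difference was 0.03 with a 95% interval from -0.09 to 0.15 (limma), or -6.12% to 11.2% on the log2(CPM + 1) scale. Of the 8 members, Itgb1 varied least between libraries, with a root mean square deviation of 0.0596 log2.

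Itga5 is the alpha chain of the fibronectin receptor, which it forms with Itgb1. It lies on chromosome 15, from 103344286 to 103366763. Its levels were 325, 315, 349, 344 and 359 CPM in Tie1-CR libraries, against 313, 323, 342 and 301 CPM in Tie1-WT libraries. Of the members it came nearest to the threshold, with means of 338 ± 17.9 CPM in Tie1-CR and 320 ± 17.2 CPM in Tie1-WT (SD, n = 5 and 4). The log2 difference was 0.08, with a 95% interval from -0.04 to 0.20 (limma adjusted p = 0.417). The highest 3 libraries were of Tie1-CR, but Tie1-WT replicate 3 lay above Tie1-CR replicates 1 and 2.

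Itga6 and Itga3 are alpha chains of laminin receptors, and both also serve epithelial cells. Itga6, on chromosome 2 from 71745616 to 71858416, measured 663, 678, 765, 528 and 738 CPM in Tie1-CR libraries. In Tie1-WT libraries it measured 580, 591, 721 and 638 CPM. Tie1-CR replicate 4 was the lowest of all 9 libraries and Tie1-CR replicate 3 the highest, so the Tie1-CR libraries enclosed every Tie1-WT value. The means were 674 ± 91.8 CPM in Tie1-CR and 633 ± 64.1 CPM in Tie1-WT, a log2 difference of 0.09 with an interval from -0.14 to 0.32 (limma adjusted p = 0.660).

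Itga3, on chromosome 11 from 95044474 to 95076801, measured 605, 573, 534, 599 and 540 CPM in Tie1-CR libraries, against 523, 563, 499 and 605 CPM in Tie1-WT libraries. The highest value of each genotype was nearly the same, and the lowest 2 libraries were Tie1-WT replicates 3 and 1. The log2 difference was 0.06, with an interval from -0.09 to 0.21 (limma adjusted p = 0.622). Some epithelial markers were higher in Tie1-CR. The 6 measured of 8 type 2 pneumocyte markers summed to 436 to 789 CPM in Tie1-CR libraries and 279 to 626 CPM in Tie1-WT libraries. At an unadjusted p below 0.05 (limma) stood 5 of the 6, or 83.3%, beside 22.3% of all genes. Only 1 of the 6, Sftpd, passed (limma adjusted p = 0.0440), or 16.7% beside 4.05% of all genes. That call ended without any library but Tie1-WT replicate 4 (0.0506 to 0.127) and with robust empirical Bayes (0.0636). The 4 measured of 7 airway markers summed to 48.0 to 81.4 CPM in Tie1-CR libraries and 12.5 to 38.2 CPM in Tie1-WT libraries, with no overlap. Of the 4, Cbr2 and Cyp2f2 passed (limma adjusted p = 0.0232 and 0.0428), or 50.0% beside 4.05% of all genes. Cyp2f2 was measured only through Tie1-CR, since no Tie1-WT library reached the level that every measured gene attains in some library. The sum includes Cyp2f2, and markers below that level in all libraries are absent, so it does not give the direction of the airway list. The call of Cyp2f2 ended without any library but Tie1-CR replicate 2 (0.0562 to 0.0806) and with robust empirical Bayes (0.0576), and that of Cbr2 without Tie1-CR replicate 4 (0.0504) or Tie1-WT replicate 3 (0.0571) and with robust empirical Bayes (0.0532). Of 6 pan-epithelial markers, 2 were measured, at a sum of 11.1 to 21.3 CPM in Tie1-CR and 6.93 to 19.2 CPM in Tie1-WT. Of the 2, Cdh1 was measured only through Tie1-CR and Krt7 only through Tie1-WT, with log2 differences of 0.83 and -0.28. Their sum therefore does not give the direction of that list. Epcam, Krt8, Krt18 and Krt19 were not analysed here. The part of epithelial RNA in the levels of Itga3 and Itga6 was not tested.

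Itga1, the alpha chain of a collagen and laminin receptor of microvessels, lies on chromosome 13 from 114953096 to 115101964. It measured 918, 1022, 1093, 1113 and 928 CPM in Tie1-CR libraries, against 1017, 932, 1020 and 984 CPM in Tie1-WT libraries. The Tie1-CR libraries held both the lowest 2 and the highest 3 values, with every Tie1-WT value between them. The means were 1015 ± 90.0 CPM in Tie1-CR and 988 ± 40.9 CPM in Tie1-WT (SD, n = 5 and 4), and the log2 difference was 0.03 with an interval from -0.12 to 0.19 (limma adjusted p = 0.811). A gene model named Gm49395 on the same strand shares 685 exonic bases with Itga1, and Pelo, a ribosome rescue factor, lies within Itga1 with 0 shared exonic bases. Reads counted for Itga1 may therefore include some from Gm49395.

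Itgav and its partners Itgb3 and Itgb5 form receptors for vitronectin and other proteins with an RGD motif. Itgav, on chromosome 2 from 83724397 to 83806916, measured 47.0, 55.0, 56.4, 51.8 and 54.7 CPM in Tie1-CR libraries, against 56.1, 50.1, 52.3 and 52.2 CPM in Tie1-WT libraries. The log2 difference of 0.01, with an interval from -0.12 to 0.14, was the smallest of the 8 members (limma adjusted p = 0.960). The antisense gene model Gm13684 shares 634 exonic bases with Itgav, and whether reads were counted by strand is not given in the sources used here.

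Itgb5, on chromosome 16 from 33829665 to 33949338, measured 218, 186, 194, 184 and 164 CPM in Tie1-CR libraries, against 186, 193, 144 and 197 CPM in Tie1-WT libraries. The highest value was in Tie1-CR replicate 1 and the lowest in Tie1-WT replicate 3. The means were 189 ± 19.8 CPM in Tie1-CR and 180 ± 24.1 CPM in Tie1-WT (SD, n = 5 and 4), a log2 difference of 0.08 with an interval from -0.14 to 0.29 (limma adjusted p = 0.687). Without Tie1-WT replicate 3 the difference was -0.03.

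Itgb3, which platelets carry in complex with Itga2b and endothelial cells with Itgav, lies on chromosome 11 from 104608000 to 104670476. It measured 33.3, 46.9, 47.6, 37.4 and 37.9 CPM in Tie1-CR libraries, against 47.8, 34.6, 29.4 and 42.3 CPM in Tie1-WT libraries. The highest and the lowest library were both of Tie1-WT, and every Tie1-CR value lay between them. The means were 40.6 ± 6.33 CPM in Tie1-CR and 38.5 ± 8.13 CPM in Tie1-WT (SD, n = 5 and 4). The log2 difference of 0.09 had the widest interval of the members, from -0.22 to 0.39 (limma adjusted p = 0.757), and was -0.03 without Tie1-WT replicate 3.

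**Figure D1:**
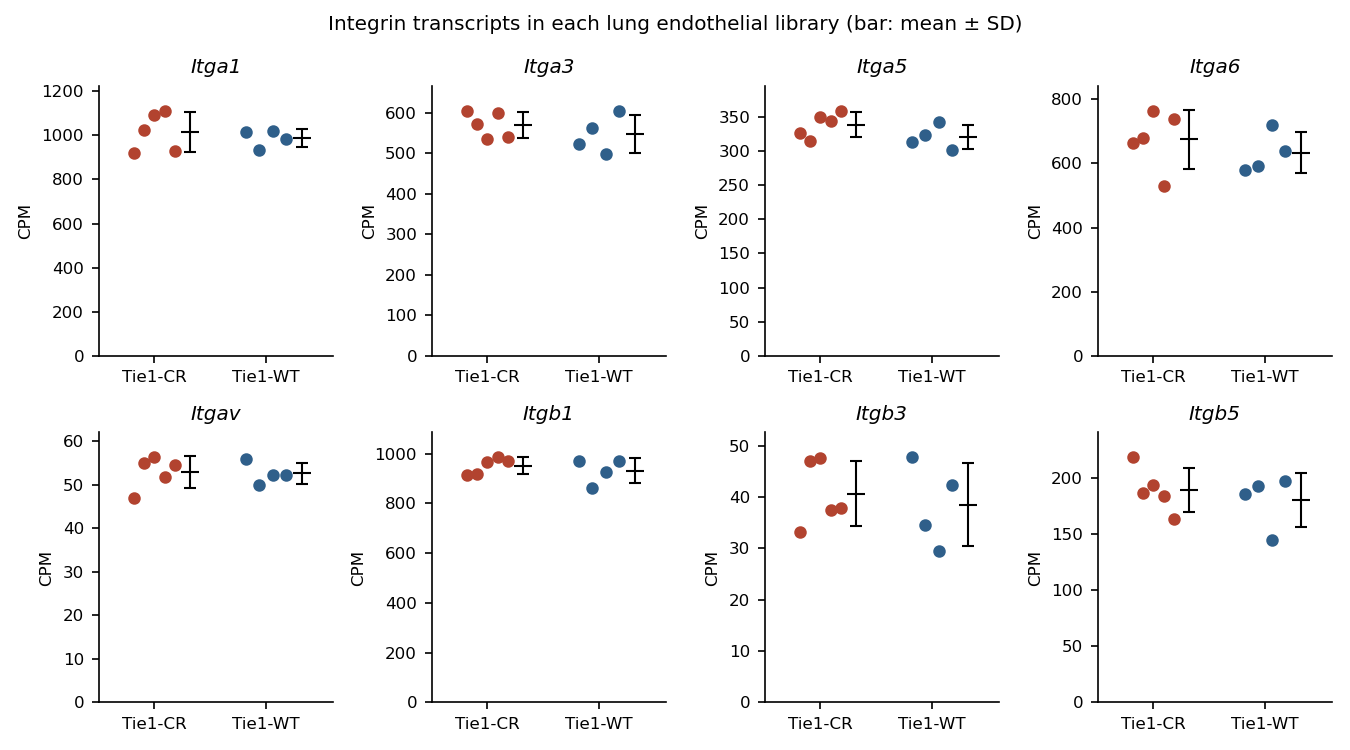
Level of each of the 8 integrin genes in CPM (vertical axes, from 0) in Tie1-CR libraries (red, n = 5) and Tie1-WT libraries (blue, n = 4); points are libraries in order of replicate number and black bars the mean ± SD. In every panel the libraries of the genotypes share a range, and Itgb1, from 862 to 986 CPM, has the narrowest spread relative to its level.

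**Figure D2:**
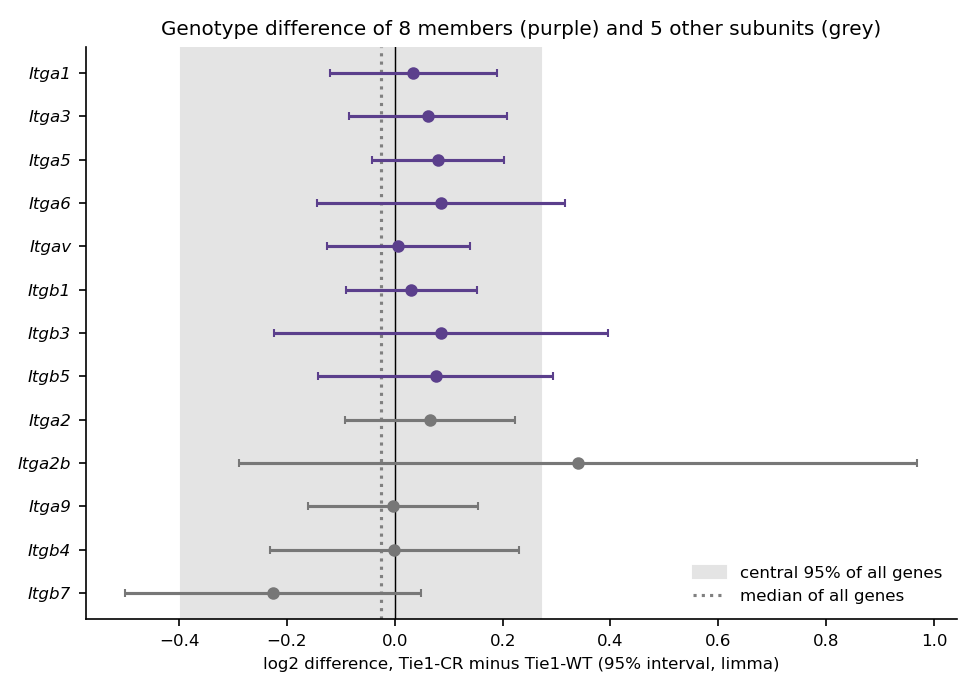
Log2 difference, Tie1-CR minus Tie1-WT, with its 95% interval from limma for the 8 members (purple) and the 5 other measured subunits (grey). The grey band spans the central 95% of all 9277 genes, from -0.40 to 0.27, and the dotted line marks their median of -0.03; every interval drawn includes 0.

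Counting error was smaller than the spread between libraries. Itgb3, the member with the fewest reads, was read 1389 to 2525 times per library, a counting error of 2.68% to 1.99% if reads are independent. Its coefficient of variation between libraries was 15.6% in Tie1-CR and 21.1% in Tie1-WT. Itga1 was read 37410 to 57960 times, with a variation of 8.87% in Tie1-CR and 4.14% in Tie1-WT. The half-widths of the members' 95% intervals ran from 0.12 to 0.31 log2, beside a median size of the difference over all genes of 0.09 log2.

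Set against transcript length, Itgb1 was the most abundant integrin transcript. Levels per length were taken as CPM per kb of the longest GENCODE transcript. They were 249 ± 8.69 CPM per kb in Tie1-CR and 244 ± 13.5 CPM per kb in Tie1-WT for Itgb1 (SD, n = 5 and 4). Itga6 followed with 156 ± 21.3 CPM per kb in Tie1-CR and 147 ± 14.9 CPM per kb in Tie1-WT. Then came Itga3, with 117 ± 6.71 in Tie1-CR and 113 ± 9.55 CPM per kb in Tie1-WT, and Itga1, with 92.5 ± 8.21 in Tie1-CR and 90.1 ± 3.73 CPM per kb in Tie1-WT. Libraries of Itga6 and Itga3 overlapped in level per length, and those of Itga3 and Itga1 did not. Itga5 measured 76.6 ± 4.07 CPM per kb in Tie1-CR and 72.5 ± 3.89 in Tie1-WT, and Itgb5 57.6 ± 6.04 in Tie1-CR and 54.8 ± 7.35 in Tie1-WT.

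Itgav and Itgb3 stood far below the other members. Itgav measured 7.51 ± 0.533 CPM per kb in Tie1-CR and 7.46 ± 0.352 in Tie1-WT, and Itgb3 7.02 ± 1.09 in Tie1-CR and 6.66 ± 1.40 in Tie1-WT. Their libraries overlapped, so their order cannot be told. Itgb5, the other partner of Itgav, lay above both in every library. The order of the alpha subunits depended on the gene model, since the union of all exons places Itga3 above Itga6 and Itga5 above Itga1. Itgb1 stood first with either length.

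**Figure D3:**
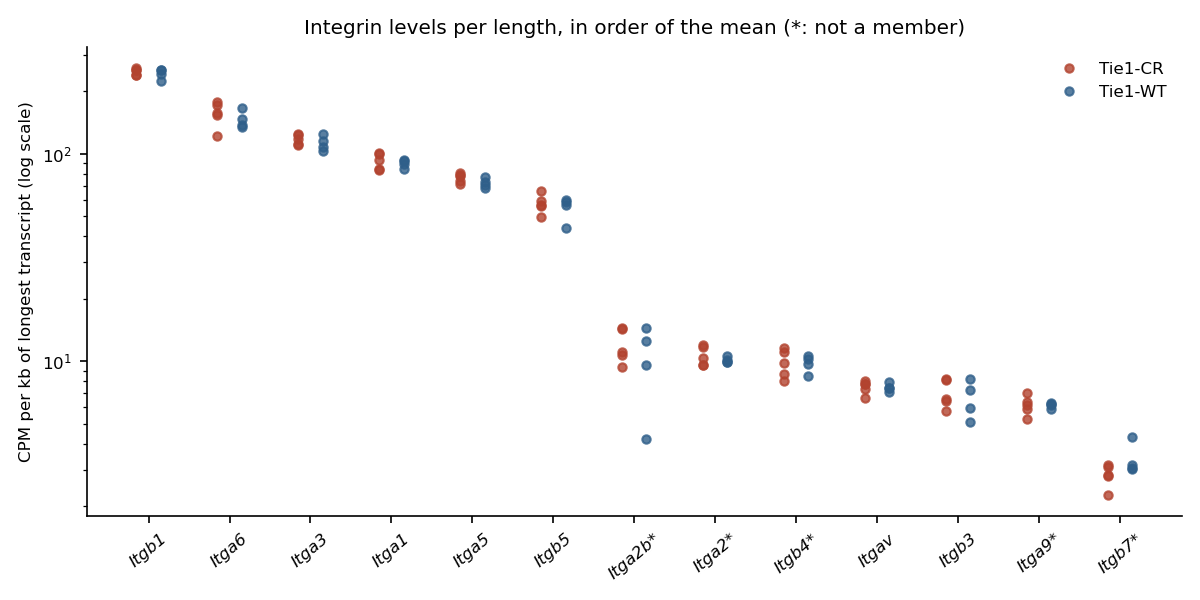
Level per length, in CPM per kb of the longest transcript on a log axis, for the 13 integrin genes of the table in order of their mean, with Tie1-CR libraries (red, n = 5) left of Tie1-WT libraries (blue, n = 4). Asterisks mark the 5 subunits outside the 8 members; Itgb1 lies between 226 and 259 CPM per kb, and Itgav and Itgb3 lie between 5.08 and 8.26.

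The shares of the alpha chains that pair with Itgb1 differed between the genotypes by less than the spread between libraries. Of the summed level per length of Itga1, Itga3, Itga5, Itga6 and Itgav, Itga6 made up 34.7% ± 3.75 in Tie1-CR and 34.1% ± 2.22 in Tie1-WT (SD, n = 5 and 4). Itga3 made up 26.1% ± 2.31 in Tie1-CR and 26.3% ± 2.44 in Tie1-WT, and Itga1 18.6% to 23.5% over the Tie1-CR libraries and 20.3% to 22.4% over the Tie1-WT libraries. Itga5 made up 17.0% ± 0.878 in Tie1-CR and 16.9% ± 0.876 in Tie1-WT, and Itgav 1.67% ± 0.0928 in Tie1-CR and 1.74% ± 0.121 in Tie1-WT. The 5 alpha transcripts together measured 1.81 ± 0.0818 times Itgb1 in Tie1-CR and 1.76 ± 0.108 times Itgb1 in Tie1-WT. With the union of exons, Itga3 held the largest of the 5 shares, at 33.0% ± 2.47 in Tie1-CR and 33.2% ± 2.77 in Tie1-WT, and Itga6 held 24.7% ± 3.00 in Tie1-CR and 24.2% ± 1.86 in Tie1-WT. These are transcript levels, and no receptor protein was measured.

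Ratios of partner subunits within a library do not depend on how libraries were scaled to each other. For the 7 known pairs compared, the difference in log2 ratio between the genotypes ran from -0.08 to 0.06. Itga6 over Itgb1 averaged -0.68 ± 0.23 log2 in Tie1-CR and -0.74 ± 0.16 in Tie1-WT (SD, n = 5 and 4), and Itga5 over Itgb1 -1.70 ± 0.04 in Tie1-CR and -1.75 ± 0.14 in Tie1-WT. For the vitronectin receptors, Itgav over Itgb3 averaged 0.11 ± 0.14 in Tie1-CR and 0.19 ± 0.27 in Tie1-WT. Itgav over Itgb5 averaged -2.94 ± 0.23 in Tie1-CR and -2.87 ± 0.22 in Tie1-WT. The ratios themselves depend on the gene model, while the differences between genotypes do not. With the union of exons as length, Itga6 over Itgb1 averaged -1.65 log2 in Tie1-CR and -1.71 in Tie1-WT, and Itgav over Itgb3 turned negative, at -0.47 in Tie1-CR and -0.39 in Tie1-WT. Each of the 7 differences was smaller than the SD between libraries pooled over both genotypes, and the genotypes overlapped in 7 of 7 pairs. For Itga5 over Itgb1 the difference of 0.050 was larger than the Tie1-CR SD of 0.042 alone, and the pooled SD was 0.095.

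**Figure D4:**
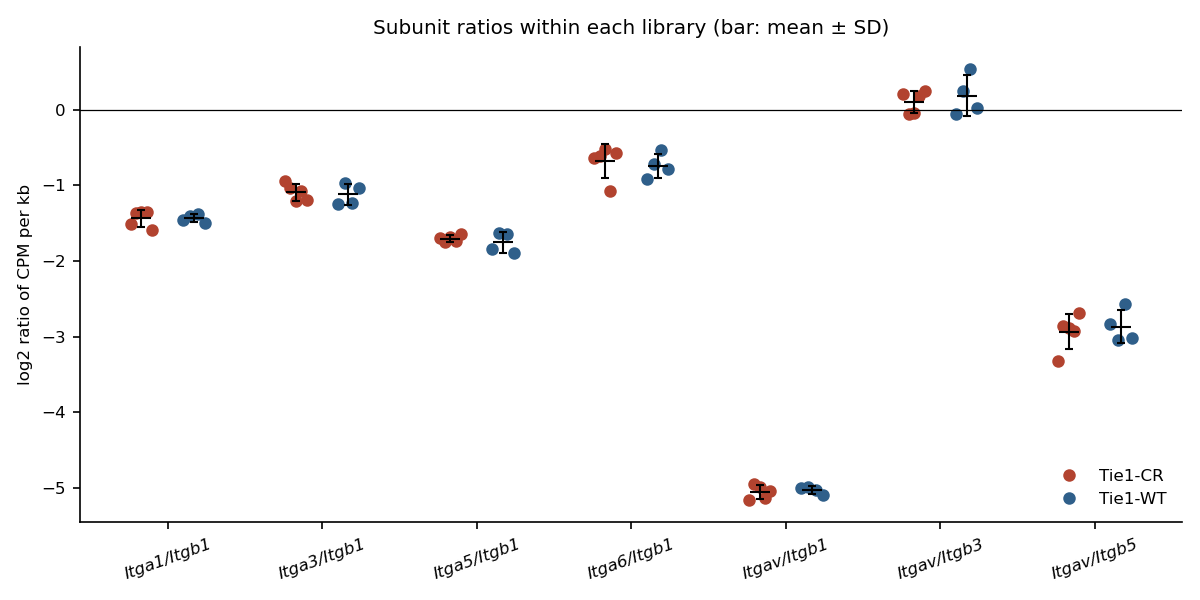
Log2 ratio of CPM per kb of an alpha subunit over its beta partner (vertical axis) in each Tie1-CR library (red, n = 5) and Tie1-WT library (blue, n = 4), with bars for the mean ± SD; 0 means equal levels per length. The genotypes overlap for all 7 pairs, Itgav lies about 5 log2 below Itgb1, and Itgav and Itgb3 lie near 0.

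Of 19 other integrin subunits, 5 were measured and 14 were not analysed here, among them the leukocyte chains Itgal, Itgam and Itgb2. Of the 5, 0 rose and 0 fell (limma, adjusted p below 0.05), beside 4.05% of all genes called, a share at which 5 genes would seldom hold a call. Their median log2 difference was -0.00, beside -0.03 for all genes. Itga2, another collagen-binding chain, averaged 75.9 ± 8.10 CPM in Tie1-CR and 72.2 ± 2.11 CPM in Tie1-WT. Itgb4, a hemidesmosome chain that pairs with Itga6, averaged 61.0 ± 9.26 CPM in Tie1-CR and 60.7 ± 5.69 CPM in Tie1-WT. Itga9, which in mice is needed for lymphatic valves, averaged 43.1 ± 4.50 CPM in Tie1-CR and 43.0 ± 1.31 CPM in Tie1-WT. Itgb7, a lymphocyte homing chain, averaged 7.60 ± 0.950 CPM in Tie1-CR and 9.09 ± 1.69 CPM in Tie1-WT, with a log2 difference of -0.23 (limma adjusted p = 0.314). Itgb7 was measured only through Tie1-WT, since no Tie1-CR library reached the level that every measured gene attains in some library.

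Itga2b, the platelet chain that pairs with Itgb3, measured 36.7, 49.9, 49.4, 38.1 and 32.2 CPM in Tie1-CR libraries, against 49.5, 33.0, 14.5 and 43.2 CPM in Tie1-WT libraries. Tie1-WT replicate 3 was the lowest for Itga2b, and it was also the lowest for Itgb3. The 3 platelet markers measured of 8 listed, Itga2b, Ppbp and Pf4, summed to 62.4 to 89.7 CPM in Tie1-CR libraries. In Tie1-WT libraries they summed to 24.3 to 90.9 CPM, with the low value again in Tie1-WT replicate 3. Pf4 was measured only through Tie1-CR replicate 3, since no other library reached the level that every measured gene attains in some library. In Tie1-WT replicate 3 Itgb3 stood at 29.4 CPM, against 34.6 to 47.8 CPM in the other Tie1-WT libraries. The chemokine gene Ppbp stood at 7.58 CPM there, against 21.5 to 32.9 CPM. The part of platelet RNA in the level of Itgb3 was not tested.

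Itgb5 and Itga3 followed markers of aerocytes, the capillary cells specialised for gas exchange, in their extreme libraries. The 8 aerocyte markers summed to 6114, 5241, 5312, 5260 and 4884 CPM in Tie1-CR libraries, against 5682, 5382, 4491 and 6273 CPM in Tie1-WT libraries. Tie1-CR replicate 1 and Tie1-WT replicate 4 had the highest 2 sums and also the highest 2 values of Itgb5 and of Itga3. Tie1-WT replicate 3 had the lowest sum and the lowest Itgb5 and Itga3, while its general capillary markers, at 14091 CPM, were the highest of all libraries. Tie1-WT replicate 1 was an exception for both genes. Its sum of 5682 CPM was exceeded only in Tie1-CR replicate 1 and Tie1-WT replicate 4. But Itga3, at 523 CPM in Tie1-WT replicate 1, was lower only in Tie1-WT replicate 3. Itgb5, at 186 CPM there, lay below Tie1-CR replicate 3 and Tie1-WT replicate 2, at 194 and 193 CPM, whose sums were lower. The pattern of the extreme libraries was noticed after the values were seen, and the part of the cell mixture in it was not tested. None of the 8 aerocyte or 7 general capillary markers passed between the genotypes (limma), beside 4.05% of all genes. At an unadjusted p below 0.05 stood 1 aerocyte marker, or 12.5%, and 0 general capillary markers, beside 22.3% of all genes. With so few markers and so low a share, 0 calls say little about these lists.

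Itga1 and Itga2 lie next to each other on chromosome 13 and had their high and low values in much the same libraries. They run on the same strand with 20995 bases between them. Likeness was taken as the root mean square difference of log2(CPM + 1) over the 9 libraries after centring each gene on its own mean. By this measure Itga2 was the fifth nearest to Itga1 of 9276 genes, at 0.0485 log2 against a median of 0.146. This was the nearest of all pairs among the 13 measured integrin genes. The pair was picked after the values were seen, so its rank is a description only. Both genes were highest in Tie1-CR replicates 3 and 4, where Itga2 measured 85.4 and 83.3 CPM, and Itga2 lay between 68.1 and 75.1 CPM in the other 7 libraries. Their promoters are shown because of this likeness, as 250 bases before to 50 after the gene start from RefSeq on GRCm38.p6 (chr13:115101915-115102214 for Itga1 and chr13:114932051-114932350 for Itga2, both minus strand, written 5′ to 3′). Capitals mark GGAA, the core that ETS factors recognise, on either strand.
Itga1: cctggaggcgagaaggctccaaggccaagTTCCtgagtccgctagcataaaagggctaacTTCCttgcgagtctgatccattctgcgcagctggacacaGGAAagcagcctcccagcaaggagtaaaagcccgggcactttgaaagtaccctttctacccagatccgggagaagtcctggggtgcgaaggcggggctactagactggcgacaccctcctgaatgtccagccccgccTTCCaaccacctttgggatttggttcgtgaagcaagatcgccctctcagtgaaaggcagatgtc
Itga2: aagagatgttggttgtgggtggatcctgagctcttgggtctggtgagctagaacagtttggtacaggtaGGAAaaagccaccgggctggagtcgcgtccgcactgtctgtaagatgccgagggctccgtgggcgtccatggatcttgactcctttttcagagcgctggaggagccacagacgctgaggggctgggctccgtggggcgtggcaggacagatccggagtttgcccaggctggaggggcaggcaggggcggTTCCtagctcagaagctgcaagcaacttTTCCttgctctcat
The Itga1 window held 4 such matches and the Itga2 window 3, but 96.0% of 32851 promoters of this length hold at least 1. GGGCGG, the core of Sp1 sites, was found once in the Itga2 window and 0 times in the Itga1 window, on either strand, and in 35.7% of all promoters. The windows held 12 and 13 CpG dinucleotides, where the median promoter holds 7. These matches describe the letters of the windows and show no binding.

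**Figure D5:**
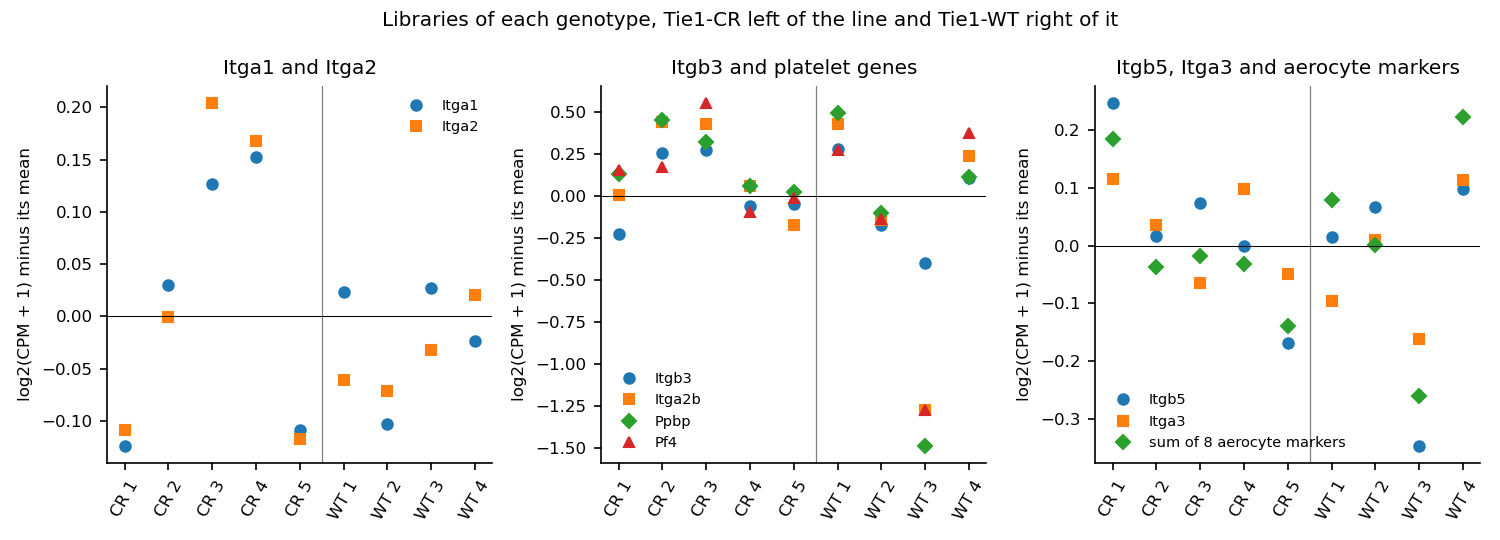
Log2(CPM + 1) minus its mean over the 9 libraries (vertical axes) for Itga1 and Itga2 (left), Itgb3 with the platelet genes Itga2b, Ppbp and Pf4 (middle), and Itgb5 and Itga3 with the sum of 8 aerocyte markers (right), Tie1-CR libraries left of the line and Tie1-WT libraries right of it. Itga1 and Itga2 share their high libraries, Tie1-CR replicates 3 and 4, and Tie1-WT replicate 3 is the lowest library in the middle and right panels.

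Among the members themselves, the nearest of 28 pairs were Itgav and Itgb1, at 0.0703 log2, and the farthest reached 0.286 log2. That nearest distance was larger than the deviation of Itgb1 from its own mean, 0.0596 log2. Itgb1 held rank 295 among all genes in nearness to Itgav, so the pair shows low variation and no shared pattern. The genes nearest to each member over all 9 libraries were not other integrins. They were Scarf1, an endothelial scavenger receptor, and Galnt4, an enzyme that starts O-glycans, for Itgb1 (0.0322 and 0.0323 log2), and Hgs, an endosomal sorting factor, and Abcb1a, a drug efflux pump, for Itga5 (0.0320 and 0.0336 log2). For Itgav, where 1 nearer gene with only a predicted name was left out, they were Aak1, a kinase of clathrin adaptors, and Abr (0.0239 and 0.0264 log2). For Itga3 they were Mknk2, a kinase of the cap-binding protein, and Lage3 (0.0369 log2 for both), and for Itga1 Ap3s2, an adaptor subunit of vesicle traffic, and Lnx2 (0.0388 and 0.0407 log2). The members that varied more had more distant neighbours. These were Tnfrsf22 and Pogk for Itga6 (0.0838 and 0.0887 log2), Rarg, a retinoic acid receptor, and Pmp22 for Itgb5 (0.0689 and 0.0707 log2), and Arrdc3 and Esm1, which encodes the endothelial proteoglycan endocan, for Itgb3 (0.0900 and 0.117 log2). The points share libraries and depth, so this is a description of these 9 libraries.

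Among 31 measured adhesion adaptors and kinases, 1 rose and 3 fell (limma, adjusted p below 0.05), which is 12.9% of them beside 4.05% of all genes. At an unadjusted p below 0.05 stood 11 of the 31, or 35.5%, beside 22.3% of all genes, and the median log2 difference was -0.02 beside -0.03. Arhgef7 and Arhgef6, exchange factors that activate Rac and Cdc42 at adhesions, fell. Arhgef7 measured 54.9, 71.6, 54.1, 65.8 and 66.1 CPM in Tie1-CR libraries, against 85.5, 87.5, 82.2 and 77.4 CPM in Tie1-WT libraries. Every Tie1-CR library lay below every Tie1-WT library, with a log2 difference of -0.41 ± 0.0833 (SE, limma adjusted p = 0.0235).

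Arhgef6 averaged 21.7 ± 0.242 CPM in Tie1-CR and 25.3 ± 1.12 CPM in Tie1-WT (limma adjusted p = 0.0372). Ptpn11, the phosphatase SHP2 that acts below growth factor and integrin receptors, fell to 43.3 ± 3.44 CPM in Tie1-CR, against 55.2 ± 3.82 CPM in Tie1-WT (limma adjusted p = 0.0225). Lims2, an adaptor of the integrin-linked kinase complex, rose to 314 ± 19.0 CPM in Tie1-CR, against 266 ± 17.1 CPM in Tie1-WT (limma adjusted p = 0.0492). Each of these 3 genes also had libraries that did not overlap between genotypes. The calls of Arhgef7 and Ptpn11 ended without Tie1-WT replicate 1, 2 or 3 (limma adjusted p = 0.0563 to 0.0877 and 0.0516 to 0.0884). That of Arhgef6 ended without any library (0.0558 to 0.131) and with TMM scaling (0.0511) or quantile normalization (0.0677), and that of Lims2 without any library but Tie1-WT replicate 4 (0.0545 to 0.147) and with quantile normalization (0.0531).

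Of 27 measured matrix ligands, 0 rose and 1 fell, or 3.70% beside 4.05% of all genes, with a median log2 difference of 0.08. At an unadjusted p below 0.05 stood 8 of the 27, or 29.6%, beside 22.3% of all genes. The ligand that fell was Cyr61, a secreted protein that binds several integrins. It measured 158, 302, 260, 217 and 276 CPM in Tie1-CR libraries, against 545, 540, 465 and 325 CPM in Tie1-WT libraries. No libraries overlapped, and the log2 difference was -0.95 ± 0.193 (SE, limma adjusted p = 0.0241). Without Tie1-CR replicate 4 or Tie1-WT replicate 1, 2 or 3 the call ended (limma adjusted p = 0.0544 to 0.0911).

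Regulators of integrin activation, such as talins, kindlins and Rap1 effectors, had 0 calls in either direction among 19 measured, beside 4.05% of all genes, with a median log2 difference of 0.10. Of the 19, 3 had an unadjusted p below 0.05, or 15.8% beside 22.3% of all genes. Rasip1, a Rap1 effector of endothelium, averaged 1063 ± 47.5 CPM in Tie1-CR and 1001 ± 44.9 CPM in Tie1-WT. Kank3, a scaffold of the Kank family, averaged 974.8 ± 52.7 CPM in Tie1-CR and 868 ± 44.4 CPM in Tie1-WT, with no overlap between the genotypes (limma adjusted p = 0.126). Membrane partners and traffic genes also had 0 calls among 19 measured, with a median of -0.03 and 4 genes, or 21.1%, at an unadjusted p below 0.05. Their most abundant genes were Cav1, the caveolar coat protein, at 2904 ± 150 CPM in Tie1-CR and 2854 ± 151 CPM in Tie1-WT, and Kdr, the main VEGF receptor, at 2612 ± 220 CPM in Tie1-CR and 2670 ± 315 CPM in Tie1-WT.

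Other cells that carry integrins were followed through marker lists. The 3 measured of 9 mural markers summed to 23.7 to 70.6 CPM in Tie1-CR libraries and 30.4 to 55.7 CPM in Tie1-WT libraries. The 4 measured of 9 fibroblast markers summed to 17.1 to 76.9 CPM in Tie1-CR and 19.9 to 82.1 CPM in Tie1-WT. The 2 measured of 12 leukocyte markers, Lyz2 and Cd68, summed to 60.2 to 118 CPM in Tie1-CR and 30.6 to 76.9 CPM in Tie1-WT. Cd68, a macrophage gene, averaged 5.30 ± 1.05 CPM in Tie1-CR and 10.7 ± 1.30 CPM in Tie1-WT (limma adjusted p = 0.00640). Cd68 was measured only through Tie1-WT, since no Tie1-CR library reached the level that every measured gene attains in some library. Markers below that level in all libraries are absent, so Cd68 does not give the direction of the leukocyte list. Lyz2 averaged 76.2 ± 21.9 CPM in Tie1-CR and 37.8 ± 21.8 CPM in Tie1-WT (limma adjusted p = 0.0669). The 6 measured of 8 type 1 pneumocyte markers, led by Clic5, which endothelium also expresses, summed to 995 to 1116 CPM in Tie1-CR and 953 to 1182 CPM in Tie1-WT. All 6 of these had a log2 difference below 0, with a median of -0.33, and 0 had an unadjusted p below 0.05 or passed (limma). Within endothelium, 7 arterial markers summed to 3004 to 3530 CPM in Tie1-CR and 2462 to 2984 CPM in Tie1-WT, 7 venous markers to 3724 to 5525 CPM in Tie1-CR and 3671 to 4153 CPM in Tie1-WT, and 3 lymphatic markers to 1172 to 1518 CPM in Tie1-CR and 1072 to 1647 CPM in Tie1-WT. The part of these cells in the integrin levels was not tested.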

How the data were processed

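Libraries followed the SMARTer Ultra Low protocol on PicoPure RNA, per the labels' protocols. STAR 2.7, GRCm38.p6 and mm10 appear in the submitters' processing notes; which tool counted reads, on which annotation and with which gene filter is not stated there. The authors deposited 1 table that calls its values TPM, but they are CPM. Within a library, 100% of values are whole multiples of a single step (tolerance 0.01 reads), from which depth was read, and 98.3% to 98.61% of reads fall in the table. Every gene reaches 10.0 CPM in some library, so a gene below that level throughout 1 genotype is in the table only through the other. No value is 0.

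Values were used as log2(CPM + 1), which understates changes of low genes, with a filter of 1 CPM in at least 4 libraries that removed no gene. All 9277 genes were fitted together with limma 3.58.1 in R 4.3.3 (trended empirical Bayes, two-sided), tested on simulated data. Adjusted p-values are Benjamini-Hochberg over all genes at 0.05. Transcript lengths and positions are from GENCODE M21, which matched 97.5% of symbols. The members, the lists and the rule for named genes were chosen with earlier results of these data known. The genes named are the members, the other measured subunits, the pathway genes past the threshold or else the 2 highest of a list, and the 2 nearest genes of each member, predicted gene names left out. Ppbp, Pf4, Pecam1, Cdh1, Krt7, the marker genes past the threshold, the aerocyte pattern and the pair of Itga1 and Itga2 were chosen after values were seen. Alternatives were TMM scaling, quantile normalization, library weights, robust empirical Bayes, other pseudocounts and filters, a replicate block and each library left out. Plots used matplotlib 3.10.9 in Python 3.11.15.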

Additional observations from a re-analysis of the deposited data

Results flagged for a closer look

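Itgb7, the lymphocyte homing chain, stood apart in Tie1-WT replicate 4, at 11.6 CPM against 8.10 to 8.45 CPM in the other 3 Tie1-WT libraries. The gap was 0.902 of the range of the group. It was the only such value among 26 groups of libraries tested for 13 integrin genes, and chance flags about 1 group in 20. Itgb7 was measured only through Tie1-WT replicate 4, since no other library reached the level that every measured gene attains in some library.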

How the results depend on the processing

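No integrin member was called under any alternative run or with any library left out, and the other 5 subunits were never called. With library weights 1 member, Itga5, had an unadjusted p below 0.05, at a log2 difference of 0.115 (limma adjusted p = 0.184). The log2 difference of Itgb1 was -0.0058 with quantile normalization, and that of Itgav was -0.0052 with the replicate block. With each library left out the differences ran from -0.0063 to 0.0509 for Itgb1, -0.0165 to 0.0486 for Itgav, -0.0330 to 0.194 for Itgb3, -0.0258 to 0.126 for Itgb5, -0.0226 to 0.546 for Itga2b, -0.0513 to 0.0498 for Itga9, -0.0644 to 0.0668 for Itgb4, -0.0139 to 0.0522 for Cav1 and -0.0995 to 0.0266 for Kdr. With TMM scaling, quantile normalization and the replicate block Itga9 stood at 0.0218, 0.0319 and 0.0091 and Itgb4 at 0.0246, 0.0294 and 0.0390; Itgb4 was 0.0230 with library weights, Cav1 -0.0195 with quantile normalization and Kdr 0.0137 with the block. The cause was not tested.

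All genes called numbered 376 (68.4% lower in Tie1-CR), 661 with library weights, 182 with the replicate block, and 60 to 355 with each library left out. The lower share was 51.1% with TMM scaling and 50.9% with quantile normalization. Same-numbered libraries did not deviate together (correlations -0.144, 0.00411, -0.0597 and 0.190), so the numbers were not taken as pairs. Calls among matrix ligands were 1, with 2 under the block and 0 to 2 with a library left out; among adaptors 4, with 2 under the block, where Lims2 (limma adjusted p = 0.106) and Arhgef6 (0.150) were not called, and 0 to 3 with a library left out. The calls of Cyp2f2 (0.0720) and Sftpd (0.0662) also ended under the block. Activation regulators had 1 call with library weights and 0 to 1 with a library left out, and membrane partners 1 with library weights. The differences in subunit ratios moved by less than the pooled SD between libraries with any library left out. With the union of exons as length, chosen after seeing the data, levels were 231 CPM per kb for Itgb1, 98.1 for Itga3, 72.7 for Itga6, 66.9 for Itga5, 53.9 for Itga1, 6.72 for Itgb3 and 4.92 for Itgav. A count test on whole reads, listed as an alternative, was not run. With 5 and 4 libraries, the half-widths of the members' 95% intervals ran from 0.12 to 0.31 log2.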
